A study of Mus musculus with 6 samples.

Results

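Pericytes and the other mural cells of blood vessels were followed through 9 genes. These were *Pdgfb*, a ligand that recruits them, and the markers *Pdgfrb*, *Rgs5*, *Cspg4*, *Kcnj8*, *Abcc9*, *Notch3*, *Mcam* and *Higd1b*. The rows were taken by symbol, and the 9 genes were listed with earlier results of these data known. Each of the 9 symbols matched 1 row among the 16247 genes of the deposited normalized table, and each row was joined by its Ensembl identifier to the raw counts, which cover 51912 genes. The RNA came from the soleus, a slow-twitch calf muscle, of 3 mice heterozygous for the Mustn1 KO-first allele (HET) and 3 wild-type (WT) littermates, all 8 weeks old and of the C57BL6/N strain. The KO-first (tm1a) allele is a gene trap: *Mustn1* transcripts are diverted after the first exon into a cassette with lacZ and a neomycin selection marker. It is carried in every cell of the body, and 1 wild-type copy of *Mustn1* remains in HET mice. The comparison asks which genes differ in soleus between mice with and without the trapped copy of *Mustn1*.

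Pericytes lie on the outside of capillaries and share the vessel wall's basement membrane with the endothelium. Endothelial cells secrete PDGF-B, which binds PDGF receptor beta on pericytes and recruits them to the vessel, and Notch3 signaling keeps mural cells in their differentiated state. In skeletal muscle, mural cells carry a potassium channel of the ATP-sensitive family, through which metabolism can change vessel tone. Of the 9 genes, *Pdgfb* is thus a signal from endothelium rather than a marker of mural cells. Several of the others are also made by other cells of a muscle: *Mcam* by endothelium, *Pdgfrb* by fibroblasts, *Notch3* and *Rgs5* by vascular smooth muscle, and *Abcc9* by the muscle fibers themselves. In RNA from whole muscle, fewer cells of a type and less RNA per cell cannot be told apart.

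Each mouse gave 1 library, with between 26790075 and 50368796 reads on genes. Normalized counts are given in CPM, the reads of a gene scaled to a library total of 1000000 reads on the genes tested, with each total first multiplied by a TMM factor. The factors lay between 1.002 and 1.05 in HET and between 0.965 and 0.981 in WT mice. *Mustn1* was at 12.6, 16.8 and 13.1 CPM in HET mice and at 23.1, 29.0 and 30.5 CPM in WT mice. Its log2 fold change, HET minus WT, was −0.96 with a standard error (SE) of 0.15 (adjusted p = 0.0452, quasi-likelihood test of edgeR, adjusted by Benjamini-Hochberg over 14696 genes), lower in HET as their genotype label has it. Although labelled male, the mice had 3858 to 9154 *Xist* reads per library, with 0 to 12 reads summed over the Y-linked *Ddx3y*, *Kdm5d*, *Uty* and *Eif2s3y*. The reads are thus those of female mice, against the label. Muscle fiber genes such as *Myh7* and *Acta1* made up between 100570 and 116567 CPM per library, summed over 10 markers.

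The promoters of *Rgs5*, *Kcnj8* and *Abcc9* are shown because *Rgs5* was the most abundant of the 9 genes, and because the other two encode the pore and the regulatory subunit of 1 channel from neighboring genes with unequal mRNA levels. RefSeq promoter windows for GRCm38.p6 were matched for 6 of the 9 genes, not for *Pdgfb*, *Pdgfrb* or *Higd1b*. The 250 bases before each start were searched on both strands for TGGGAA (the core of sites for the Notch partner Rbpj), GGGCGG (the GC box), TATATA and the CArG box bound by serum response factor. Capitals mark the matches, and GGGCGG on the other strand reads CCGCCC. The *Abcc9* stretch is cut to 209 bases at the start of the gene in the count table. *Rgs5* is at chr1:169655251-169655500 on the plus strand, *Kcnj8* at chr6:142571615-142571864 and *Abcc9* at chr6:142702316-142702524, both on the minus strand, each printed 5′ to 3′ on the strand of its gene.
Rgs5: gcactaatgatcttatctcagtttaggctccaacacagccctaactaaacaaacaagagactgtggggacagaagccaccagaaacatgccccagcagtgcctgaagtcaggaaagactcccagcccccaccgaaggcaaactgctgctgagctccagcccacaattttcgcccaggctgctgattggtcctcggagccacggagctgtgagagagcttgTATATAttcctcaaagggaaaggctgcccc
Kcnj8: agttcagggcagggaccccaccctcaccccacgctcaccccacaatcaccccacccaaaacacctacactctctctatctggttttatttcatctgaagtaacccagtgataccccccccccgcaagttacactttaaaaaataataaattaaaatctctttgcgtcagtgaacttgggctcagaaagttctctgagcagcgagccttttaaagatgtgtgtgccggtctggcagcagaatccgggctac
Abcc9: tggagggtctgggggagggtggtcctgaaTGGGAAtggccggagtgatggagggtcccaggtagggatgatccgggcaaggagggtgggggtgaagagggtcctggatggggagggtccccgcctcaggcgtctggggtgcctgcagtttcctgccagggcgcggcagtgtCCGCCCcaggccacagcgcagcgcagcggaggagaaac

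The *Rgs5* window held 1 TATATA, a motif found in 5.25% of 32851 promoter windows of the same length. The *Abcc9* window held 1 TGGGAA and 1 GGGCGG, which occurred in 21.6% and 32.7% of all windows. None of the 4 motifs was found in the *Kcnj8* window. Of the windows not printed, those of *Cspg4*, *Notch3* and *Mcam* held 2, 4 and 5 matches to GGGCGG. The CArG box, present in 1.47% of all windows, was found in 0 of the 6. The GC content was 53.6% for *Rgs5*, 49.2% for *Kcnj8* and 66.8% for *Abcc9*, beside a median of 52.4% over all windows.

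None of the 9 genes passed the test between HET and WT soleus. With TMM scaling, the largest difference was in *Rgs5*, which was lower in all HET mice than in all WT mice. All 9 genes passed the filter on low counts, and 0 of 9 passed an adjusted p of 0.05 in the quasi-likelihood test of edgeR after Benjamini-Hochberg adjustment, where 22 of the 14696 genes tested (0.150%) did, 21 of them higher (0.143%) and 1 lower (0.00680%) in HET. At an unadjusted p under 0.05 there was 1 of 9, *Rgs5*, beside 1140 genes in all (7.76%). *Rgs5* was also the only one of the 9 whose genotypes did not overlap in TMM-scaled CPM, beside 1993 of all genes (13.6%), of which 884 (6.02%) were lower in HET. Without scaling factors its genotypes overlapped. The log2 fold change was above 0 for 4 of 9 genes (6 of 9 without scaling factors, when *Kcnj8* and *Notch3* turned to 0.06 and 0.03) and below 0 for 5, with a median of −0.01. For all genes tested it was above 0 for 45.6%, with a median of −0.02. The SE of the log2 fold change ran from 0.08 for *Abcc9* to 0.27 for *Higd1b*, and the adjusted p from 0.385 to 0.991. These p-values set the difference between genotypes against the variation between the mice sampled, which edgeR estimates partly from all genes together. With 3 mice against 3, the exact permutation test of a single gene cannot give a p below 0.1.

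**Figure D1:**
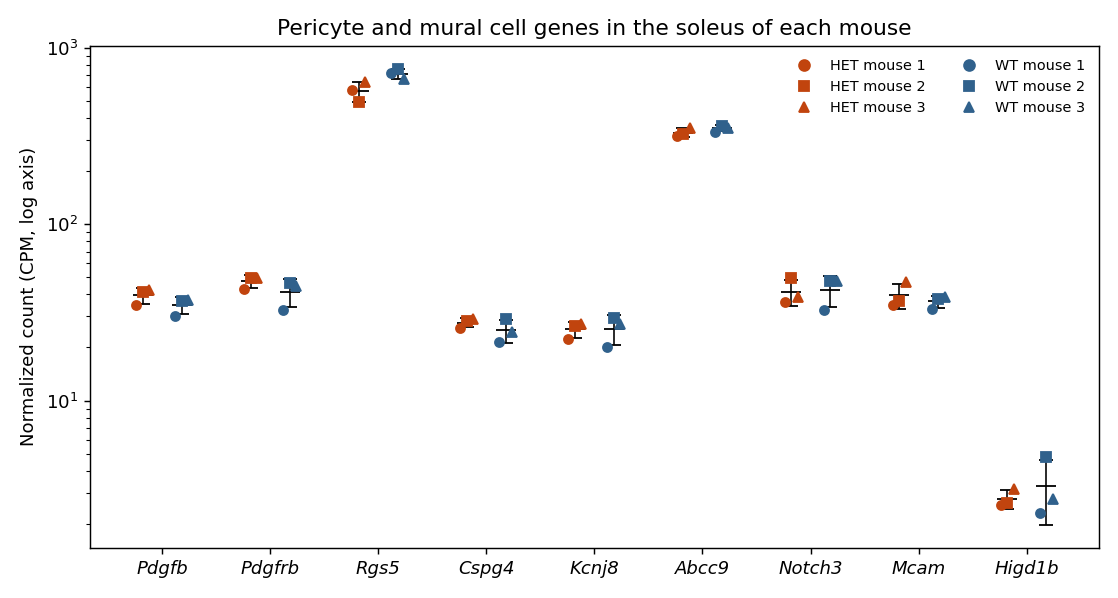
Normalized counts of the 9 genes in CPM (log axis), with 1 symbol per mouse in HET (orange) and WT (blue); black bars give the mean ± SD of 3 mice. HET and WT symbols overlap for 8 genes, and for *Rgs5* the HET mice lie between 494 and 642 CPM and the WT mice between 666 and 760.4 CPM.

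*Pdgfb* (ENSMUSG00000000489), the ligand, lies on the minus strand of chromosome 15 at 79995900 to 80014808 in GRCm38. It was at 34.9, 41.5 and 42.1 CPM in the HET mice and at 30.3, 36.9 and 37.1 CPM in the WT mice. HET mouse 1 lay among the WT mice, while the other HET mice lay above all of them. The mean was 39.5 ± 3.99 CPM in HET and 34.8 ± 3.86 CPM in WT (SD, n = 3). The log2 fold change was 0.18 with an SE of 0.11 (adjusted p = 0.820, edgeR), and its 95% interval, in folds, ran from 0.952 to 1.35.

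*Pdgfrb* (ENSMUSG00000024620), the receptor for this ligand on pericytes, lies on the plus strand of chromosome 18 at 61045150 to 61085061. It was at 42.9, 49.7 and 49.9 CPM in HET and at 32.6, 46.6 and 44.8 CPM in WT mice. WT mouse 1 was the lowest of all, and HET mouse 1 lay among the WT mice. With means of 47.5 ± 3.97 and 41.3 ± 7.59 CPM (SD, n = 3), the log2 fold change was 0.20 (SE 0.13, adjusted p = 0.838, edgeR). It was 0.05 without WT mouse 1 and between 0.16 and 0.29 without each of the other mice. The log2 difference of *Pdgfrb* and *Pdgfb* CPM within a mouse was 0.27 ± 0.0277 in HET and 0.24 ± 0.119 in WT (SD, n = 3). The genotypes overlapped, and the difference was not tested.

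*Notch3* (ENSMUSG00000038146), the Notch receptor of mural cells, lies on the minus strand of chromosome 17 at 32120820 to 32166880. It was at 36.4, 49.3 and 38.7 CPM in HET and at 32.8, 47.5 and 47.4 CPM in WT mice, so the highest and the lowest mouse were of different genotypes and the rest lay between them. The antisense gene Gm17276, which shares exonic bases with it, reached at most 0.187 CPM. The log2 fold change was −0.04 (SE 0.16, adjusted p = 0.980, edgeR), with a 95% interval from 0.757 to 1.25 in folds.

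The mural potassium channel is built from a pore encoded by *Kcnj8* (ENSMUSG00000030247) and a sulfonylurea receptor encoded by *Abcc9* (ENSMUSG00000030249). Both genes are on the minus strand of chromosome 6, *Kcnj8* at 142564837 to 142571614 and *Abcc9* at 142587862 to 142702315. *Kcnj8* was at 22.3, 26.6 and 27.2 CPM in HET and at 20.2, 29.5 and 27.1 CPM in WT mice. WT mice were both the lowest and the highest for this gene, and the HET mice lay within their range. Its log2 fold change was −0.01 (SE 0.14, adjusted p = 0.991, edgeR), with a 95% interval from 0.792 to 1.24 in folds. *Abcc9* was at 318, 324 and 352 CPM in HET and at 335, 362 and 353 CPM in WT mice. It varied least of the 9 genes, with a highest over lowest mouse of 1.14, and HET mouse 3 lay among the WT mice. Its log2 fold change was −0.08 (SE 0.08, adjusted p = 0.908, edgeR), and the 95% interval, from 0.832 to 1.08 in folds, was the narrowest of the 9. The antisense gene 5330439B14Rik shares exonic bases with *Abcc9* and reached at most 0.0801 CPM in any library, counted by strand.

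*Rgs5* (ENSMUSG00000026678), a regulator that shortens G protein signaling and a common pericyte marker, lies on the plus strand of chromosome 1 at 169655501 to 169695813. It was at 574, 494 and 642 CPM in HET and at 719, 760.4 and 666 CPM in WT mice, from between 13255 and 32859 reads per library. All HET mice lay below all WT mice, with a gap between HET mouse 3 and WT mouse 3 smaller than the spread within either genotype. HET mouse 3 had 28179 *Rgs5* reads among 42014866 on genes, and WT mouse 3 had 32859 among 50368796. Without scaling factors the order of these mice turned, so the genotypes overlapped. The log2 fold change was then −0.25 (SE 0.11, adjusted p = 0.562, edgeR). The mean was 570.1 ± 74.2 CPM in HET and 715 ± 47.5 CPM in WT (SD, n = 3), a ratio of 0.797 with HET over WT. On the log2 scale the fold change was −0.33 (SE 0.11, unadjusted p = 0.0123, adjusted p = 0.385, edgeR's quasi-likelihood test), so it did not pass the threshold over all genes. The two-sided exact permutation test gave p = 0.1, the smallest it can give. Without HET mouse 2, the lowest, the log2 fold change was −0.22, and without each of the other mice it ran from −0.42 to −0.28.

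Surface markers of mural cells were spread across both genotypes. *Cspg4* (ENSMUSG00000032911, chromosome 9, plus strand, 56865033 to 56899870), which encodes the NG2 proteoglycan of pericytes, was at 25.7, 28.4 and 29.0 CPM in HET and at 21.5, 28.9 and 24.6 CPM in WT mice. WT mouse 2 lay among the HET mice, and the log2 fold change was 0.15 (SE 0.12, adjusted p = 0.876, edgeR). *Mcam* (ENSMUSG00000032135, chromosome 9, plus strand, 44134469 to 44142727), an adhesion molecule of the vessel wall, was at 34.8, 36.9 and 46.9 CPM in HET and at 33.2, 37.6 and 38.7 CPM in WT mice. HET mouse 3 stood above the rest, and the log2 fold change of 0.12 (SE 0.12, adjusted p = 0.908, edgeR) was −0.02 without it. The antisense gene Gm10687, which shares exonic bases with *Mcam*, reached at most 2.31 CPM.

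*Higd1b* (ENSMUSG00000020928, chromosome 11, plus strand, 102835849 to 102838040), a member of the hypoxia-inducible domain family found in pericytes, had the fewest reads, between 69 and 139 per library. It was at 2.54, 2.61 and 3.17 CPM in HET and at 2.31, 4.75 and 2.76 CPM in WT mice. WT mouse 2 stood above all others, and the HET mice lay within the range of the WT mice. The log2 fold change was −0.23 (SE 0.27, adjusted p = 0.922, edgeR) and 0.13 without WT mouse 2, so its direction rested on that mouse. The 95% interval, from 0.567 to 1.29 in folds, was the widest of the 9 on the log2 scale.

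**Figure D2:**
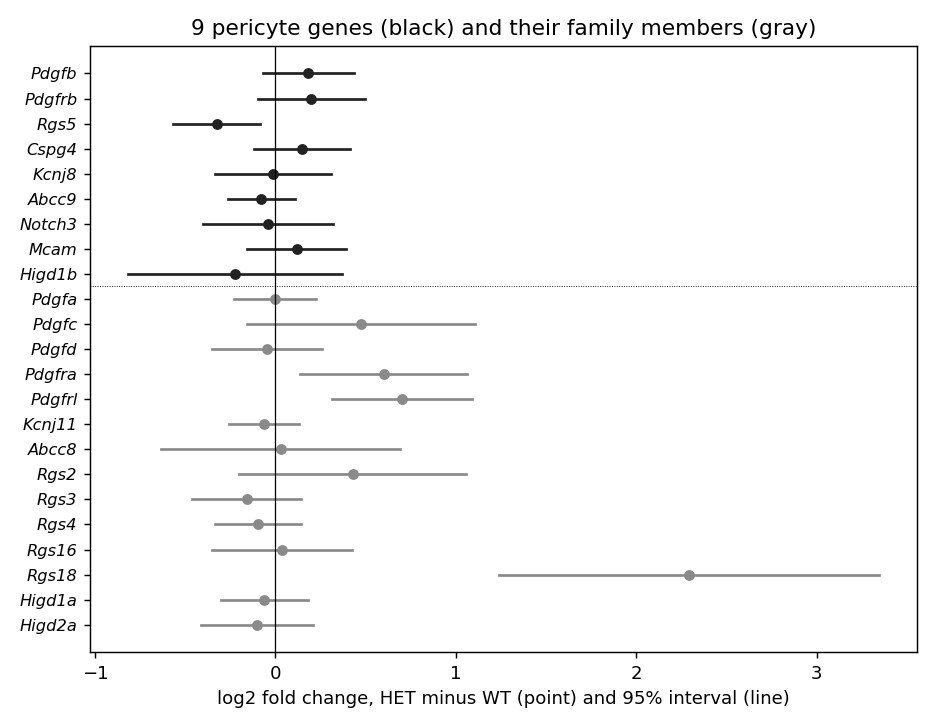
Log2 fold change, HET minus WT (points), with its 95% interval (lines), for the 9 genes (black) and for tested members of the PDGF, potassium channel, RGS and HIG1 families (gray). Of the black intervals only that of *Rgs5*, from −0.57 to −0.09, lies on 1 side of 0, before any adjustment for the number of genes tested.

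Levels of different genes were compared per length, as CPM per kb of the exon bases in the count table. *Rgs5* was the highest in every mouse, at 141 CPM per kb on average (range 109 to 167), and 3.47-fold above *Abcc9* at 40.7 (38.0 to 43.2). *Abcc9* was in turn 3.20-fold above *Pdgfb* at 12.7 (10.4 to 14.4), and the ranges of neither pair overlapped. *Pdgfb*, *Mcam* at 11.3, *Kcnj8* at 9.997, *Pdgfrb* at 8.11, *Notch3* at 5.22 and *Higd1b* at 3.57 CPM per kb followed in this order, each overlapping in range with the next. *Cspg4* was the lowest at 2.21 (1.80 to 2.43), below the range of *Higd1b*. Only *Mcam* and *Kcnj8* exchanged places between mice.

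The channel subunits were far apart in mRNA level per length, with *Abcc9* between 3.71 and 5.05 times *Kcnj8* in each mouse. *Kcnj11*, the alternative pore subunit used by muscle fibers, was at 40.7 CPM per kb (37.4 to 43.5), next to *Abcc9*, and *Abcc8*, the other sulfonylurea receptor, was at 0.183 (0.135 to 0.246). *Kcnj11* did not pass the test between genotypes (log2 fold change −0.06, SE 0.09, adjusted p = 0.934, edgeR), and neither did *Abcc8* (0.03, SE 0.30, adjusted p = 0.991).

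The same mice were low or high for several of the genes. WT mouse 1 had the lowest value for 7 of the 9 genes, with a median of −0.28 on the log2 scale relative to each gene's mean over the 6 mice, and *Rgs5* at 0.18 was its only gene above that mean. HET mouse 1 was below the mean for all 9 genes. The highest value was in HET mouse 3 for 4 genes, in WT mouse 2 for 4 and in HET mouse 2 for 1. WT mouse 1 was also the lowest in summed CPM of the fibroblast markers (1358 against 1966 to 3932 in the others), the tenocyte markers (135 against 290 to 743) and the Schwann cell markers (96.4 against 117 to 145). For the smooth muscle markers its sum was 1450 CPM against 1470 to 1617, of which *Synpo2*, a gene that striated muscle also expresses, gave 1159. Without *Synpo2*, left out after the values were seen, the sum was 291 against 308 to 378 CPM. For the other pericyte markers WT mouse 1 was not the lowest, at 267 CPM against 255 to 299, of which *Art3* gave 147 (108 to 156 in the others). That place rested on *Art3*. With this gene left out, also after the values were seen, WT mouse 1 had the lowest sum. It was not the lowest for the endothelial, macrophage, satellite cell or muscle fiber markers. The part of these cell types in its low values was not tested.

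**Figure D3:**
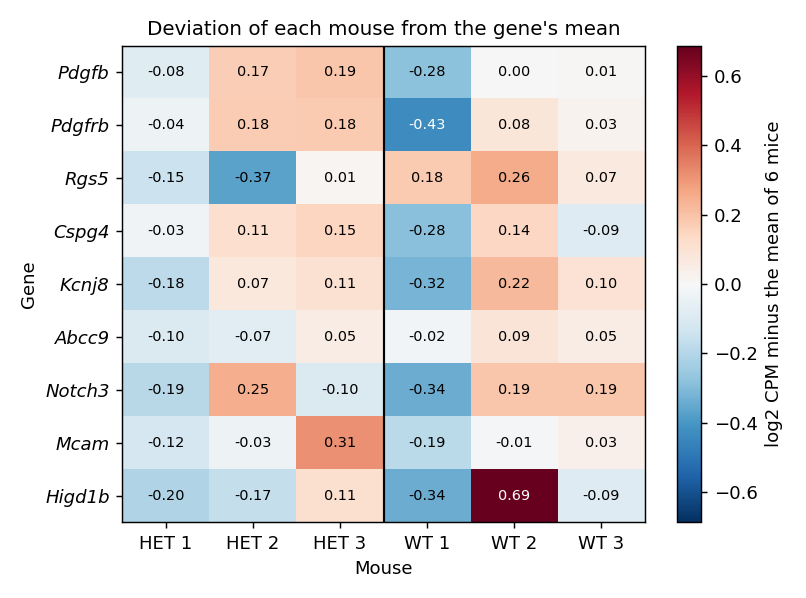
Log2 CPM of each gene (rows) in each mouse (columns) minus the gene's mean over 6 mice, from blue (below) to red (above). WT mouse 1 is blue in every row but *Rgs5*, and the largest single deviation is 0.69 for *Higd1b* in WT mouse 2.

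The pattern of *Pdgfrb* over the mice was compared with those of the 14695 other genes tested by the root-mean-square difference of log2 CPM over 6 mice, each gene centered on its own mean. The most alike were *Rhoj* (0.0287), *Pmepa1* (0.0311) and *Eif2ak3* (0.0340). *Pdgfb* ranked 28 (0.0720), *Cspg4* 51, *Kcnj8* 153, *Mcam* 577 and *Notch3* 802, whereas *Abcc9* ranked 2396, *Higd1b* 8449 and *Rgs5* 10596. For *Rgs5*, the most alike were 6720427I07Rik (0.0237), *Sfi1* (0.0479) and *Larp4* (0.0536), and among the 9 genes *Abcc9* came nearest at rank 1559 with the others between 6644 and 10225. These measures describe likeness over 6 libraries that differ in genotype and depth. They also depend on how much a gene varies, and *Abcc9* varied least of the 9 genes.

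The level of *Rgs5* was also set against other genes within each mouse. Its log2 CPM minus the mean log2 CPM of the other 8 genes was 4.20, 3.80 and 4.12 in HET and 4.68, 4.31 and 4.27 in WT mice, a contrast chosen because *Rgs5* alone did not overlap between genotypes, so it is no independent result. The HET mice were all below the WT mice, with a difference of −0.38 between the means (4.04 ± 0.210 and 4.42 ± 0.228, SD, n = 3). Relative to the mean of 15 endothelial markers, *Rgs5* was at 3.83, 3.38 and 3.89 in HET and at 4.15, 3.91 and 3.96 in WT mice, a contrast that carries over the difference in *Rgs5* itself. The other 8 genes, the endothelial ligand *Pdgfb* among them, averaged −0.34 ± 0.0979 in HET and −0.42 ± 0.109 in WT relative to the same endothelial markers (SD, n = 3). These genotypes overlapped. Over all 9 genes the values were 0.11 ± 0.113 and 0.08 ± 0.0857, also overlapping.

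Genes of the same pathways gave 0 past the adjusted p in either direction in each list. In the PDGF family, 3 of 5 tested genes were above 0, with a median log2 fold change of 0.47. The 2 genes at an unadjusted p under 0.05 were *Pdgfra*, the receptor found on fibroblasts (0.60, SE 0.20, adjusted p = 0.427, edgeR), and *Pdgfrl*, a receptor-like protein (0.70, SE 0.18, adjusted p = 0.200). *Pdgfrl* was at 4.30, 5.22 and 5.95 CPM in HET and at 2.98, 3.33 and 3.20 CPM in WT mice, without overlap. The other ligands were *Pdgfa* at a log2 fold change of 0.00, *Pdgfc* at 0.47 and *Pdgfd* at −0.05, each overlapping between genotypes.

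In the Notch pathway, 9 of 18 genes were above 0 with a median of 0.00. *Hey1*, a transcriptional repressor induced by Notch, was at 6.81, 6.93 and 7.61 CPM in HET and at 8.66, 8.51 and 9.99 CPM in WT mice (log2 fold change −0.35, SE 0.13, adjusted p = 0.499, edgeR). *Notch2* lay the other way without overlap (0.33, SE 0.12, adjusted p = 0.477), while *Heyl*, a target of Notch3 in mural cells, was at 0.03 and the ligand *Jag1* at 0.05. *Hey1* and *Notch2* were the only 2 of the 18 without overlap, beside 13.6% of all genes tested. They were also the only 2 at an unadjusted p under 0.05 (edgeR), beside 7.76% of all genes. Of the RGS relatives of *Rgs5*, 5 of 8 passed the filter, 3 of them above 0. *Rgs4* was at −0.10, *Rgs3* at −0.16, *Rgs16* at 0.04 and *Rgs2* at 0.43. *Rgs18*, an RGS protein of platelets and other blood cells, was at a low level between 0.596 and 0.661 CPM in HET and between 0.0608 and 0.201 CPM in WT mice (log2 fold change 2.29, SE 0.48, adjusted p = 0.108, edgeR). *Higd1a* and *Higd2a*, the 2 tested relatives of *Higd1b*, were at −0.06 and −0.10.

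Signals between endothelium and mural cells, which include the angiopoietins, endothelin and nitric oxide receptors, had 7 of 15 genes above 0, a median of 0.00 and a range from −0.28 for *S1pr1* to 0.31 for *Cdh2*. Among other pericyte markers, 13 of 14 passed the filter, all but *Foxf2*, and 9 of 13 were above 0 with a median of 0.06. *Anpep*, an aminopeptidase that fibroblasts and myeloid cells also carry, was at 9.32, 10.2 and 12.4 CPM in HET and at 5.18, 6.63 and 8.23 CPM in WT mice (log2 fold change 0.67, SE 0.18, adjusted p = 0.256, edgeR). *Art3* lay the other way without overlap, at −0.29 (SE 0.10, adjusted p = 0.415). *Anpep* and *Art3* were the only 2 of the 13 without overlap, beside 13.6% of all genes tested.

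Markers of the cells next to pericytes had medians near that of the 9 genes, and those of connective tissue and macrophages had higher ones. Smooth muscle markers had 6 of 11 above 0 with a median of 0.01, from −1.27 for *Myocd* (adjusted p = 0.323, edgeR) to 0.60 for *Cnn1*. Both of these genes had few reads, 8 to 37 per library for *Myocd* and 7 to 57 for *Cnn1*. Endothelial markers had 7 of 15 above 0 with a median of −0.06, from −0.29 for *Ptprb* to 0.22 for *Cldn5*. Neither list had a gene past the threshold. All 15 fibroblast markers were above 0 with a median of 0.61, from 0.26 for *Hmcn2* to 1.23 for *Col1a1*, and 1, *Pi16*, passed the threshold. Macrophage markers had 14 of 15 above 0 with a median of 1.29, from −0.14 for *Maf* to 2.14 for *Fcgr1*, which had only 2 to 56 reads per library. Of these markers 6 passed: *C1qa*, *C1qb*, *Csf1r*, *Lyz2*, *Adgre1* and *Ctss*. The 10 tenocyte markers were all above 0, from 0.15 for *Scx* to 2.14 for *Chad*, with a median of 1.09 and 0 past the threshold. Summed CPM did not overlap between genotypes for fibroblast markers (2831 to 3932 in HET, 1358 to 2199 in WT), for macrophage markers (139 to 162 and 88.8 to 99.5) or for tenocyte markers (417 to 743 and 135 to 336). The medians were 0.05 for Schwann cell, −0.22 for satellite cell and −0.04 for muscle fiber markers, with 0 past the threshold. Schwann cell markers ran from −0.46 for *Cdh19* to 0.71 for *S100b*. Satellite cell markers had 7 of 8 below 0 and ran from −0.59 for *Myf5* to 0.04 for *Cdh15*. Muscle fiber markers ran from −0.13 for *Ttn* to 0.14 for *Myh2*. The part of fibroblasts in the values of *Pdgfrb*, *Pdgfra* and *Anpep*, which they also express, was not tested.

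**Figure D4:**
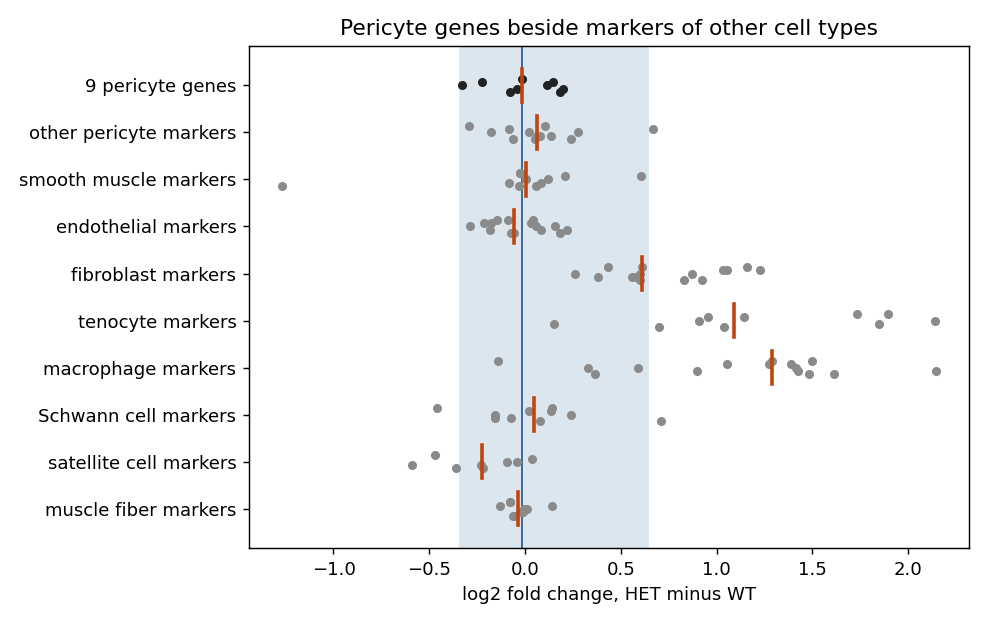
Log2 fold change, HET minus WT, of the 9 genes (black) and of markers of other cells of muscle (gray points), with the median of each list (red bar), the median of all 14696 genes (blue line) and their 5th to 95th percentile (shaded, −0.34 to 0.64). All 9 genes lie within the shaded range, with a median of −0.01, while the medians are 0.61 for fibroblast, 1.09 for tenocyte and 1.29 for macrophage markers.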

How the data were processed

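Soleus RNA of 3 HET and 3 WT mice was sequenced as poly(A)-selected, stranded, single-end libraries. The authors aligned reads with STAR 2.7.3a to GRCm38.p6 and made the deposited raw counts per gene with featureCounts 2.0.3 in reverse-stranded mode, per the file headers. The normalized signal the authors deposited is each count over a DESeq2 size factor for that library (0.773 to 1.42). It was used only to find the 9 genes. Another deposited file holds the authors' own DESeq2 comparison and was not used. All columns of values per mouse were matched to samples (0 unmatched).

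Raw counts were tested in R 4.3.3 with edgeR 4.0.16 (filterByExpr with a minimum count of 10, TMM, robust quasi-likelihood test, genotype as the only term, two-sided, Benjamini-Hochberg adjustment over the 14696 genes tested, threshold 0.05). CPM carry the TMM factors, and log2 CPM for comparisons within a mouse and of likeness use a prior count of 2. A standard error is the log2 fold change over the square root of F. Tables and plots used Python 3.11.15, pandas 2.3.3, SciPy 1.17.1 and matplotlib 3.10.9. Antisense genes and spans were read from GENCODE M21, which has the same span for 7 of the 9 genes, not for *Pdgfb* and *Notch3*. The genes named are the 9 genes, *Mustn1*, sex-linked checks, pathway genes, the ends of each marker list, genes past the threshold and the 3 genes most like *Pdgfrb* and *Rgs5*. Antisense genes and the markers *Myh7*, *Acta1* and *Synpo2* are named besides. Members and lists were chosen with earlier results of these data known. The 13 alternatives were other scaling, filters and tests (limma 3.58.1, DESeq2 1.42.0), the replicate block and each mouse left out. The steps were tested on simulated counts in which 200 genes were changed. There edgeR recovered 28 of 83 genes changed 1.5-fold, 41 of 58 changed 2-fold and 49 of 59 changed 3-fold, with 12 false calls. Most changes of 1.5-fold were thus missed.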

Additional observations from a re-analysis of the deposited data

How the results depend on the processing

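The 9 genes were recomputed under 13 alternatives, which gave 117 values. None passed the adjusted p of 0.05. The lowest was 0.0867, for *Rgs5* with no filter on low counts, and its range over the alternatives reached 0.811. The direction was kept in 106 values and turned in 11, of which 9 came from leaving out a mouse. With no scaling factors, *Rgs5* was at −0.25, *Kcnj8* at 0.061 and *Notch3* at 0.032 on the log2 scale. The median of all genes moved from −0.02 to 0.06. With each mouse left out, the log2 fold change ran from −0.16 to 0.10 for *Kcnj8*, from −0.20 to 0.046 for *Notch3*, from −0.022 to 0.20 for *Mcam*, from −0.42 to 0.13 for *Higd1b* and from −0.42 to −0.22 for *Rgs5*. The number of the 9 genes above 0 ran from 4 to 7 and their median from −0.11 to 0.13, both highest without WT mouse 2. Counts over all genes depended on the settings more. Genes higher and lower in HET numbered 386 and 18 with no filter, 200 and 10 with DESeq2 and 3 and 0 with limma-voom. They ran from 0 to 77 and from 0 to 6 with each mouse left out (581 to 903 and 169 to 469 at an unadjusted p under 0.05), both 0 without HET mouse 1 or 3 or WT mouse 1 or 2. Without these mice *Mustn1* also missed the threshold. It ran from −1.09 to −0.88 with a mouse left out (adjusted p from 0.0314 to 0.280, edgeR) and was at −0.99 with limma-voom (adjusted p = 0.0673). The replicate block gave 114 genes higher and 2 lower. The labels do not say whether the replicate numbers pair the mice. Deviations of mice with the same number correlated at 0.20, −0.0058 and −0.035, which cannot decide it with 3 mice per genotype. With the block, *Rgs5* had an adjusted p of 0.434, and no call among the 9 genes changed. *Higd1b* had the fewest reads of the 9 genes, between 69 and 139.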
